A study of Mus musculus with 44 samples.

Results

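Aminoacyl-tRNA synthetases are the enzymes that join each amino acid to its transfer RNA. The 36 genes described here are 20 genes of the cytosolic enzymes and 16 genes of the mitochondrial enzymes, the latter with symbols ending in 2. They were matched by symbol, from a list drawn up with earlier results of these data known. All 36 were found among the 22674 gene rows of the maturation table and among the 18274 gene rows of the ovulation table. RNA sequencing had been done on ovarian follicles of wild-type CD-1 mice, an outbred strain, exposed or not to perfluorononanoic acid (PFNA, a long-chain per- and polyfluoroalkyl substance). In the maturation window, in which follicles grow in response to gonadotropin, 11 control samples labelled as treated with the solvent DMSO were compared with 10 samples labelled PFNA. In the ovulation window, 12 control samples treated with human chorionic gonadotropin (hCG, the hormone used to trigger ovulation) were compared with 11 samples that received hCG and PFNA. The labels give no dose, exposure time or age, and do not say which samples came from the same mouse or culture, so the p-values measure the spread between these samples, which may in part be technical.

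Each synthetase recognises its own amino acid and the matching transfer RNAs, so the family sets the supply of charged transfer RNA for translation. Cytosolic and mitochondrial ribosomes draw on separate pools, for which most amino acids have a pair of nuclear genes, whereas Gars and Kars each encode the enzyme of both compartments and Qars has no mitochondrial partner because mitochondria make glutaminyl-tRNA by another route. In the cytosol, Dars, Eprs, Iars, Kars, Lars, Mars, Qars and Rars join the multisynthetase complex, and the other enzymes act outside it. Several cytosolic genes are known targets of ATF4, a transcription factor of the amino acid and integrated stress responses, which binds with C/EBP partners to elements that hold the letters TGATGNAA.

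The promoters of the cytosolic genes are shown first because these letters set some of them apart from the mitochondrial genes. RefSeq promoter windows on GRCm38.p6, which run from 250 bases before to 50 bases after a gene's start, were found for 13 of the 20 cytosolic and 14 of the 16 mitochondrial genes. TGATGNAA, searched on both strands, was present in 5 of the 13 cytosolic genes with a window (38.5%) and in 0 of the 14 mitochondrial ones. It was present in 4.51% of the 27025 genes in the promoter table, in 3.97% of its 32851 windows, and in 2.83% of the 10619 genes that had a window and were tested in the ovulation window. The genes that hold it were Aars, with a pair of matches, Gars, Iars, Tars and Yars. The 250 bases before the start are given for Aars (chr8:111033592-111033841, plus strand), Gars (chr6:55037751-55038000, plus strand) and Tars (chr15:11399659-11399908, minus strand), with the matching letters in capitals.
Aars: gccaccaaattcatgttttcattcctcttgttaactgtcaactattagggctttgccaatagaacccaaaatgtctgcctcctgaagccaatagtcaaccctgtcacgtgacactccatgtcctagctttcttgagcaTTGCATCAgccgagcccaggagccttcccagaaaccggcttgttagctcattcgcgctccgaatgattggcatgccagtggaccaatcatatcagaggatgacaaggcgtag
Gars: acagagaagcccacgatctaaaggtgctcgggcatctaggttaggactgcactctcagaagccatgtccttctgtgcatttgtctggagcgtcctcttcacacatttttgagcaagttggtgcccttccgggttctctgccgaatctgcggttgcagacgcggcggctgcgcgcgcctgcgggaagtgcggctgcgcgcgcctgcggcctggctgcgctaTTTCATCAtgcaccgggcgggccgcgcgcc
Tars: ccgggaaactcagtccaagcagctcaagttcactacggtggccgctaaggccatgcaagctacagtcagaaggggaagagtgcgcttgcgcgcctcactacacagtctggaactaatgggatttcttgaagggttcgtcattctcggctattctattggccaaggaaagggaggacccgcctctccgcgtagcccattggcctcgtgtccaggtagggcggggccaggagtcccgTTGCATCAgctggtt
In these windows the match read from the other strand, as TTGCATCA in Aars and Tars and TTTCATCA in Gars. Its first base lay at position -112 in Aars, -30 in Gars and -15 in Tars, counted from the start with no position 0. The other matches lay just after the start, at position 10 in Aars, 8 in Iars (chromosome 13, plus strand) and 4 in Yars (chromosome 4, plus strand), and are given with 8 bases on each side.
Aars, second match: gggtcactTTTCATCAgagcgctc
Iars: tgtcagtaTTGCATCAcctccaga
Yars: agctcagcTGATGCAAcccgacgg
Of these 5 genes, Aars, Gars, Iars and Tars were higher with PFNA in the ovulation window, and Yars was not called there and was higher in the maturation window. Among the 8 cytosolic genes whose window lacked the letters, 5 were higher and 2 were lower in the ovulation window, with a median log2 fold change of 0.46 against 0.37 for the 5 with a match. Of all genes tested in the ovulation window, 38.0% were higher and 35.2% lower. So genes that rose were found with and without the letters, and a match describes the sequence only, not a bound site. Neither median covers Cars, Hars, Lars, Nars, Rars, Vars and Wars, for which no window was found. Among the cytosolic genes, Nars and Lars rose most in the ovulation window and Hars fell most.

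Levels between genes can be compared in the maturation table, whose values are taken as TPM (transcript abundance corrected for transcript length, as a share of the library). That unit was inferred from the values, since the table is named as raw counts: every library has the same total, and its control means relative to the ovulation control counts were smaller for longer transcripts, with a slope of -0.699 on log2 scales over 7234 genes, a description across genes in the direction a length correction gives. In its 11 controls, Qars, for glutamine, was the highest member at 133 ± 5.87 TPM (SD, n = 11) and Aars, for alanine, was second at 76.5 ± 7.06 TPM. Fars2, the mitochondrial phenylalanine enzyme, was the lowest at 0.289 ± 0.0303 TPM. The control means of the cytosolic genes ranged from 4.75 TPM for Farsb to 133 TPM for Qars, with a median of 21.3 TPM, and those of the mitochondrial genes from 0.289 TPM for Fars2 to 26.1 TPM for Yars2, with a median of 7.19 TPM. In the order of levels, 31 of the 35 pairs of neighbours had control ranges that overlapped. The ranges parted between Qars and Aars, between Aars and Farsa, between Tars and Yars2, and between Wars2 and Fars2.

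**Figure D1:**
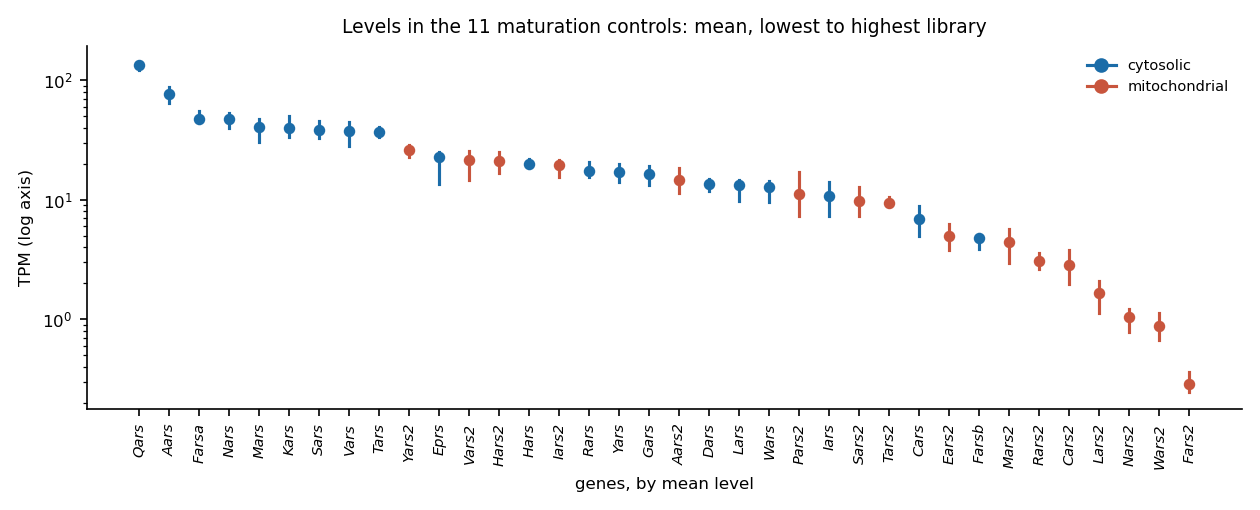
Mean level of each of the 36 synthetase genes in the 11 maturation controls (points, TPM on a log axis), with lines from the lowest to the highest library, cytosolic genes in blue and mitochondrial genes in red. Qars and Aars stand above the rest, Fars2 stands below it, and the lines of most neighbours overlap.

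For the same amino acid the cytosolic gene was usually the more abundant. Of 17 pairs of a cytosolic and a mitochondrial gene (Eprs, for glutamate and proline, and Fars2 each enter 2 of them), the cytosolic gene was above its partner in all 11 controls in 14. The exceptions were Iars with Iars2 and Yars with Yars2, in which the mitochondrial gene was higher in every control, and Hars with Hars2, in which the cytosolic gene was higher in 3 of 11. Hars had 19.9 ± 1.14 TPM and Hars2 21.2 ± 2.39 TPM. The median coefficient of variation over the controls was 10.3% for the cytosolic and 13.8% for the mitochondrial genes, and Pars2, for mitochondrial proline, was the most variable member at 30.6%.

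In the maturation window PFNA changed few synthetase genes. Among the 20 cytosolic genes, Nars (asparagine), Sars (serine) and Yars (tyrosine) were higher, and Farsa, the alpha subunit of the phenylalanine enzyme, was lower, by limma on log2(TPM + 1) with an adjusted p under 0.05. Among the 14 mitochondrial genes tested, Mars2 (methionine) and Hars2 (histidine) were higher and Sars2 (serine) was lower. Fars2 and Wars2 averaged under 1 TPM and were not tested. Over all 13712 genes tested, 13.3% were higher, 16.1% lower and 29.4% called either way, so the 5 higher and 2 lower of 34 synthetase genes were near or below the shares over all genes. The median log2 fold change was 0.08 for the cytosolic and 0.03 for the mitochondrial genes, against 0.02 over all genes.

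Nars ranged from 39.6 to 53.1 TPM in the controls, with a median of 48.3, and from 50.8 to 68.8 TPM with PFNA, with a median of 57.9. The groups overlapped slightly, with 8 of 10 PFNA libraries above every control, and the log2 fold change was 0.30 ± 0.060 (SE, adjusted p = 0.00092). Sars, which also charges the transfer RNA used for selenocysteine, ran from 32.9 through a median of 38.5 to 45.4 TPM in the controls and from 39.3 through 46.0 to 51.4 TPM with PFNA. Its groups overlapped more, with 6 of 10 PFNA libraries above every control, and it rose by 0.23 ± 0.063 (adjusted p = 0.0077). Yars ran from 14.1 through 17.6 to 19.99 TPM and, with PFNA, from 16.8 through 20.1 to 26.8 TPM. It rose by 0.27 ± 0.079 (adjusted p = 0.014), with 5 of 10 PFNA libraries above every control.

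Gars, for glycine, had the next smallest p and did not pass, with 13.2 to 19.1 TPM (median 16.7) in the controls, 15.1 to 23.5 TPM (median 20.2) with PFNA, and a log2 fold change of 0.21 ± 0.080 (adjusted p = 0.058). Farsa ran from 43.5 through 45.8 to 55.2 TPM in the controls and from 36.1 through 40.0 to 54.2 TPM with PFNA. It was lower by -0.20 ± 0.064 on the log2 scale (adjusted p = 0.022). In Farsa 8 of 10 PFNA libraries lay below every control, and the other two, PFNA replicates 1 and 2, lay at 54.2 and 46.8 TPM within the control range. Its partner Farsb, the beta subunit of the same enzyme, had a log2 fold change of -0.03 (adjusted p = 0.78).

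Mars2, which charges the mitochondrial methionine transfer RNA used for both initiation and elongation, showed the largest change of any member in this window. It ran from 2.99 through 4.33 to 5.66 TPM in the controls and from 5.63 through 6.96 to 8.51 TPM with PFNA. In 9 of 10 PFNA libraries it was above every control, and the log2 fold change was 0.57 ± 0.084 (adjusted p = 4.5e-05). Sars2 ran from 7.36 through 9.88 to 12.7 TPM in the controls and from 3.94 through 7.30 to 8.49 TPM with PFNA, so that 5 of 10 PFNA libraries lay below every control. It fell by 0.48 ± 0.11 on the log2 scale (adjusted p = 0.0033), while Sars rose. Hars2 ran from 16.8 through 20.9 to 25.1 TPM and, with PFNA, from 16.9 through 26.0 to 33.6 TPM, with a log2 fold change of 0.26 ± 0.093 (adjusted p = 0.042). That call was lost when any of 13 of the 21 libraries was left out, with an adjusted p of up to 0.081. Aars2, for mitochondrial alanine, ran from 11.5 through 14.8 to 18.6 TPM and, with PFNA, from 8.81 through 12.1 to 16.9 TPM, and its log2 fold change of -0.23 ± 0.094 did not pass (adjusted p = 0.071).

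In none of the 36 genes were all maturation PFNA libraries above, or all below, every control, which held for 0.489% and 0.788% of all genes tested. The summed level of the cytosolic genes was 653 ± 43.2 TPM in the controls (SD, n = 11) and 680.3 ± 31.5 TPM with PFNA (n = 10), and that of the mitochondrial genes was 152.5 ± 10.6 and 158.0 ± 12.3 TPM. Control replicate 11 was the lowest control for 14 of the 20 cytosolic and 7 of the 16 mitochondrial genes. TPM are shares of a fixed total, and 14 genes whose transcripts match those of the mitochondrial genome took 20.8 ± 1.90% of the TPM in the controls and 25.2 ± 1.97% with PFNA. With the values rescaled without these genes, which moved the median over all genes from 0.02 to 0.09, 9 cytosolic genes were higher and 0 lower, and 4 mitochondrial genes were higher and 1 lower. Over all genes, that rescaling changed the calls from 1824 higher and 2206 lower of 13712 to 3043 higher and 1700 lower of 13731.

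Some libraries and cell type markers also stood apart in this window. The first principal component over all genes placed PFNA replicates 1 and 2 at -18.1 and -10.6, within the range of the controls (-37.7 to -7.60) and away from the other PFNA libraries (33.4 to 48.8). Without both, none of the 7 calls was lost, and Iars and Iars2 were called higher and Aars2 lower in addition. The summed level of 8 granulosa markers ran from 41120 to 63090 TPM in the controls and from 14370 to 46940 TPM with PFNA, and 5 of the 8 were lower. That of 11 oocyte markers ran from 134.5 through a median of 176.2 to 214.5 TPM in the controls and from 0.268 through 2.006 to 366.8 TPM with PFNA, and all 10 tested were lower. The highest PFNA value, above every control, was that of PFNA replicate 10. Over all genes tested in this window 16.1% were lower. No marker was at 0 in all libraries of a group. The oocyte share was 0.0135 to 0.0215% in the controls and 0.0140, 0.0120 and 0.0367% in PFNA replicates 1, 2 and 10. In every other PFNA library it was at most 0.00074%, so oocyte share and treatment largely coincided and cannot be fully told apart. With the oocyte share as a covariate, 6 cytosolic genes were higher and 0 lower, so the call of Farsa was lost (adjusted p = 0.13). That fit called 2161 genes higher and 1634 lower of all 13712 tested, against 1824 and 2206 without the covariate. In such bulk samples fewer cells of a type and less RNA per cell cannot be told apart, and the part of the granulosa markers in these results was not tested.

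**Figure D2:**
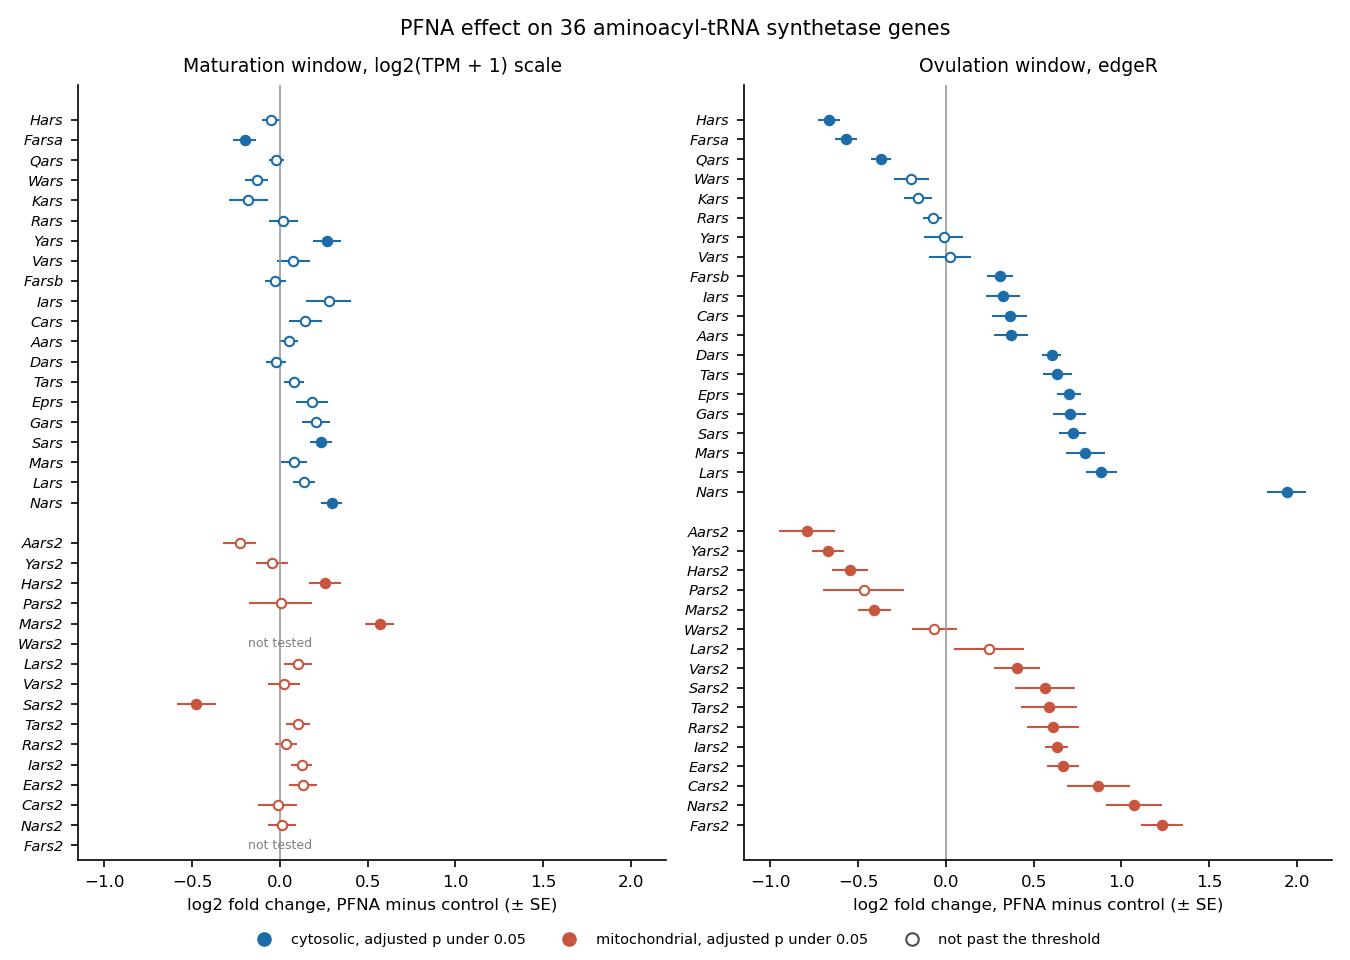
Log2 fold change of each synthetase gene, PFNA minus control, with its SE, in the maturation window (left, log2(TPM + 1) scale) and the ovulation window (right, edgeR). Filled points passed an adjusted p under 0.05, and the ovulation changes reach further, from -0.79 for Aars2 to 1.94 for Nars.

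In the ovulation window most synthetase genes changed with PFNA, and more rose than fell. Among the 20 cytosolic genes 12 were higher (Nars, Lars, Mars, Sars, Gars, Eprs, Tars, Dars, Aars, Cars, Iars and Farsb) and 3 were lower (Hars, Farsa and Qars), by edgeR's quasi-likelihood test with an adjusted p under 0.05. Kars, Rars, Vars, Wars and Yars were not called. Over all 13441 genes tested, 38.0% were higher, 35.2% lower and 73.2% called either way, so the 15 of 20 called were near the share over all genes, while their split leaned to higher. The median log2 fold change was 0.34 for the cytosolic genes and 0.04 over all genes. When libraries were scaled by their totals alone, both medians shifted, to 0.48 and 0.16, with no call among the synthetase genes changed.

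Nars changed most. It ran from 162 through a median of 211 to 266 CPM (counts scaled to library size, normalized by the trimmed mean of M values) in the controls and from 619.8 through 792.5 to 1099 CPM with PFNA. The groups were far apart, with the lowest PFNA library well above the highest control, and the log2 fold change was 1.94 ± 0.11 (SE, adjusted p = 2.7e-14), a 3.84-fold difference. The summed level of the 20 cytosolic genes was 2511 ± 229 CPM in the controls (SD, n = 12) and 3821 ± 463 CPM with PFNA (n = 11), above every control in 11 of 11 libraries. Without Nars it was 2294 ± 198 and 2990.0 ± 413 CPM, above every control in 10 of 11.

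The multisynthetase complex did not move as a unit. Of its 8 enzymes 5 were higher (Dars, Eprs, Iars, Lars and Mars), Qars was lower, and Kars and Rars were not called, against 38.0% higher and 35.2% lower over all genes. Dars, for aspartate, ran from 59.9 through 70.7 to 77.3 CPM in the controls and from 93.4 through 105 to 119 CPM with PFNA. Its groups did not overlap and it rose by 0.60 ± 0.054 (adjusted p = 2.4e-10). Eprs, a fusion of the glutamate and proline enzymes, ran from 262 through 319 to 360.4 CPM and, with PFNA, from 382 through 519 to 619.7 CPM. Every PFNA library was above every control here too, with a log2 fold change of 0.70 ± 0.070 (adjusted p = 1.6e-09).

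Lars, the leucine enzyme that also takes part in leucine sensing by mTORC1, ran from 96.5 through 119 to 143 CPM in the controls and from 148 through 219 to 295 CPM with PFNA. The lowest PFNA library lay just above the highest control, and the log2 fold change was 0.89 ± 0.087 (adjusted p = 1.3e-09). Mars, for methionine, ran from 57.5 through 73.3 to 101 CPM and, with PFNA, from 94.0 through 131 to 181 CPM. It rose by 0.79 ± 0.11 (adjusted p = 4e-07), with 9 of 11 PFNA libraries above every control. The gene span of Mars overlaps that of Ddit3, the stress gene encoding CHOP, by 68 bases on the opposite strand of chromosome 10. Without a stated use of strand, reads from that stretch cannot be told apart where both genes have exons there, which was not tested. Ddit3 itself averaged 5.10 CPM in the controls and 31.3 CPM with PFNA, and its part in the Mars counts was not tested.

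Qars went the other way from most of the complex. It ran from 127 through 139 to 160.5 CPM in the controls and from 89.7 through 114 to 120.0 CPM with PFNA. All 11 PFNA libraries were below every control, and it fell by 0.37 ± 0.056 on the log2 scale (adjusted p = 1.7e-06). Kars and Rars did not pass, at -0.16 ± 0.080 (adjusted p = 0.08) and -0.08 ± 0.056 (adjusted p = 0.22) on the log2 scale. Iars, for isoleucine, rose by 0.33 ± 0.099 (adjusted p = 0.005), with 5 of 11 PFNA libraries above every control. The non-catalytic scaffold of the complex was split too. Aimp1 rose by 0.75 ± 0.080 (adjusted p = 5.5e-09), whereas Eef1e1 and Aimp2 were lower, at -0.58 ± 0.096 (adjusted p = 6.8e-06) and -0.29 ± 0.082 (adjusted p = 0.0029). In the maturation window limma called 0 of the 8 enzymes and 0 of the 3 scaffold genes, of which Iars and Lars had an unadjusted p under 0.05 (0.039 and 0.044). The share of all genes called either way there was 29.4%.

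Among the 12 cytosolic enzymes outside the complex, 7 were higher, 2 were lower and 3 were not called. The shares over all genes were 38.0% higher, 35.2% lower and 73.2% called either way. Besides Nars, Sars ran from 104 through 118 to 141 CPM in the controls and from 149 through 199.7 to 246 CPM with PFNA. The groups did not overlap, and it rose by 0.72 ± 0.077 (adjusted p = 5.4e-09). Gars and Tars, for glycine and threonine, rose by 0.71 ± 0.094 (adjusted p = 2.4e-07) and 0.63 ± 0.082 (adjusted p = 1.4e-07), each with 10 of 11 PFNA libraries above every control. Smaller rises, from 0.31 to 0.37, were seen in Aars, Cars and Farsb, with 5 or 6 of 11 PFNA libraries above every control.

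Hars, the cytosolic histidine enzyme, fell furthest among the cytosolic genes. It ran from 49.7 through 61.9 to 76.6 CPM in the controls and from 33.2 through 39.2 to 44.9 CPM with PFNA. Every PFNA library was below every control, with a log2 fold change of -0.67 ± 0.064 (adjusted p = 8.4e-10). Farsa ran from 68.8 through 78.1 to 88.0 CPM and, with PFNA, from 43.8 through 53.1 to 64.2 CPM, again with no overlap (-0.57 ± 0.063, adjusted p = 1.1e-08). The subunits of the phenylalanine enzyme thus parted, since Farsb rose by 0.31 ± 0.074 (adjusted p = 0.00062). Vars, for valine, Wars, for tryptophan, and Yars did not pass, at 0.03 ± 0.12, -0.20 ± 0.10 and -0.01 ± 0.11 on the log2 scale (adjusted p = 0.86, 0.085 and 0.92).

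Every PFNA library was above every control for 5 of the 20 cytosolic genes, against 11.9% of all genes, and below every control for 3, against 14.1%. The cytosolic genes shared their extreme libraries. Control replicate 6 was the lowest control for 10 of the 20 genes, PFNA replicate 3 the lowest PFNA library for 12, and PFNA replicate 10 the highest for 10. Leaving out PFNA replicate 4 brought Kars and Wars past the threshold, with log2 fold changes of -0.19 and -0.27 and 5 cytosolic genes lower in place of 3.

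**Figure D3:**
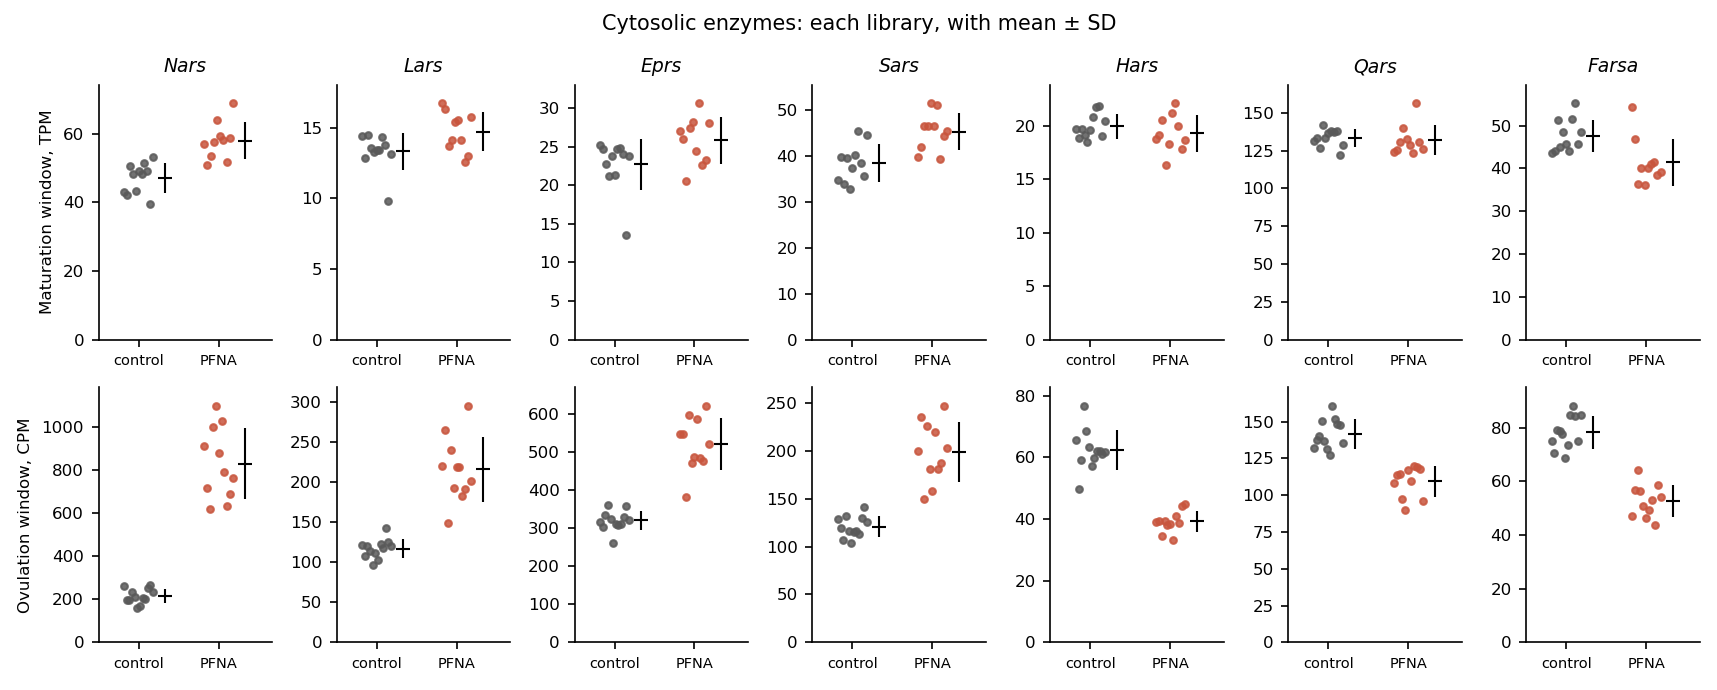
Level of 7 cytosolic synthetase genes in each library of the maturation window (top, TPM) and ovulation window (bottom, CPM), controls in grey and PFNA in red, with mean ± SD beside them. In the ovulation row the PFNA points of Nars, Lars, Eprs and Sars lie above all control points and those of Hars, Qars and Farsa below them.

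Of the 16 mitochondrial genes, 9 were higher in the ovulation window (Fars2, Nars2, Cars2, Ears2, Iars2, Rars2, Tars2, Sars2 and Vars2), 4 were lower (Aars2, Yars2, Hars2 and Mars2), and Lars2, Pars2 and Wars2 were not called. Over all genes 38.0% were higher and 35.2% lower. The median log2 fold change of the mitochondrial genes was 0.49, against 0.04 over all genes. Their summed level was 212 ± 18.7 CPM in the controls and 252.5 ± 21.3 CPM with PFNA, above every control in 9 of 11 libraries. Every PFNA library was above every control in 2 of the 16 genes, against 11.9% of all genes, and below every control in 1, against 14.1%.

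Fars2, whose enzyme works as a single chain unlike the cytosolic phenylalanine enzyme, rose most among them. It ran from 4.03 through 7.03 to 9.30 CPM in the controls and from 12.5 through 15.9 to 20.5 CPM with PFNA. The groups did not overlap, and the log2 fold change was 1.23 ± 0.12 (adjusted p = 1.7e-09). Iars2 ran from 37.8 through 48.8 to 56.9 CPM and, with PFNA, from 63.7 through 72.0 to 84.9 CPM. It too showed no overlap, with a rise of 0.63 ± 0.066 (adjusted p = 4.2e-09). Ears2, the glutamate enzyme that also charges the mitochondrial glutamine transfer RNA, ran from 10.9 through 13.4 to 16.2 CPM and, with PFNA, from 14.9 through 20.97 to 26.7 CPM, with 10 of 11 PFNA libraries above every control (0.67 ± 0.093, adjusted p = 4.9e-07).

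Nars2, for mitochondrial asparagine, ran from 3.41 through 5.14 to 7.39 CPM in the controls and from 5.78 through 10.7 to 15.0 CPM with PFNA. It rose by 1.07 ± 0.16 (adjusted p = 1.9e-06), the highest fold change of a mitochondrial gene after Fars2, as Nars had the highest of the cytosolic genes. Cars2, Rars2 and Tars2 rose by 0.87 ± 0.18, 0.61 ± 0.15 and 0.59 ± 0.16 (adjusted p = 9.8e-05, 0.0006 and 0.0015). Sars2 ran from 2.70 through 4.91 to 5.55 CPM in the controls and from 3.28 through 5.92 to 10.4 CPM with PFNA. It rose by 0.56 ± 0.17 (adjusted p = 0.0051), with 7 of 11 PFNA libraries above every control. Vars2 rose by 0.41 ± 0.13 (adjusted p = 0.0065), with 3 of 11 above every control.

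Yars2 was the mitochondrial gene in which every PFNA library lay below every control. It ran from 30.4 through 35.0 to 42.5 CPM in the controls and from 15.9 through 22.2 to 27.4 CPM with PFNA. The log2 fold change was -0.67 ± 0.092 (adjusted p = 4e-07). Aars2 ran from 10.7 through 13.2 to 16.9 CPM and, with PFNA, from 2.63 through 8.15 to 11.7 CPM, with 9 of 11 PFNA libraries below every control (-0.79 ± 0.16, adjusted p = 0.00011). Hars2 ran from 13.2 through 17.8 to 21.9 CPM and, with PFNA, from 7.92 through 12.5 to 14.9 CPM, with 8 of 11 below every control (-0.55 ± 0.10, adjusted p = 4.3e-05). Hars and Hars2 lie head to head on chromosome 18, and their gene spans overlap by 198 bases on opposite strands. Reads from that stretch cannot be told apart where both genes have exons there, which was not tested. The same holds for the gene spans of Cars2 with Naxd (984 bases), Fars2 with Nrn1 (920 bases), Iars2 with Rab3gap2 (2034 bases), Farsb with Sgpp2 (2315 bases) and Wars with Wdr25 (544 bases). The span of Aars shares 1326 bases with that of Exosc6 on its own strand. Mars2 ran from 8.71 through 11.3 to 13.5 CPM and, with PFNA, from 7.01 through 8.20 to 10.56 CPM, with 10 of 11 below every control (-0.41 ± 0.094, adjusted p = 0.0004).

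The 3 mitochondrial genes without a call were Lars2 at 0.24 ± 0.20, Pars2 at -0.47 ± 0.23 and Wars2 at -0.07 ± 0.13 on the log2 scale (adjusted p = 0.29, 0.066 and 0.66). Pars2 ran from 2.16 to 6.05 CPM in the controls and from 1.26 to 5.21 CPM with PFNA, the lowest counts of the family beside those of Cars2, and its SE was the widest. Pars2 was near the threshold, since edgeR called it lower when any of 4 libraries was left out (adjusted p = 0.013 to 0.044). In this window the summed level of 11 oocyte markers ran from 82.2 to 408 CPM in the controls and from 8.13 to 478 CPM with PFNA, with 4 of 10 tested higher. With the oocyte share as a covariate Sars2 and Vars2 no longer passed (adjusted p = 0.15 and 0.064), Pars2 passed as lower, and the mitochondrial median was 0.29. Of 4 endothelial markers all 4 were higher, of 4 stroma markers 3 were higher and 1 lower, of 4 theca markers 3 were higher, of 4 leukocyte markers 1 was higher, and of 8 granulosa markers 5 were higher and 2 lower. These counts stand against 38.0% higher and 35.2% lower over all genes tested. The summed granulosa level ran from 12480 to 19340 CPM in the controls and from 11480 to 17140 CPM with PFNA, so that the groups overlapped over most of their range. The part of the endothelial, stroma and theca cells in the synthetase results was not tested.

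**Figure D4:**
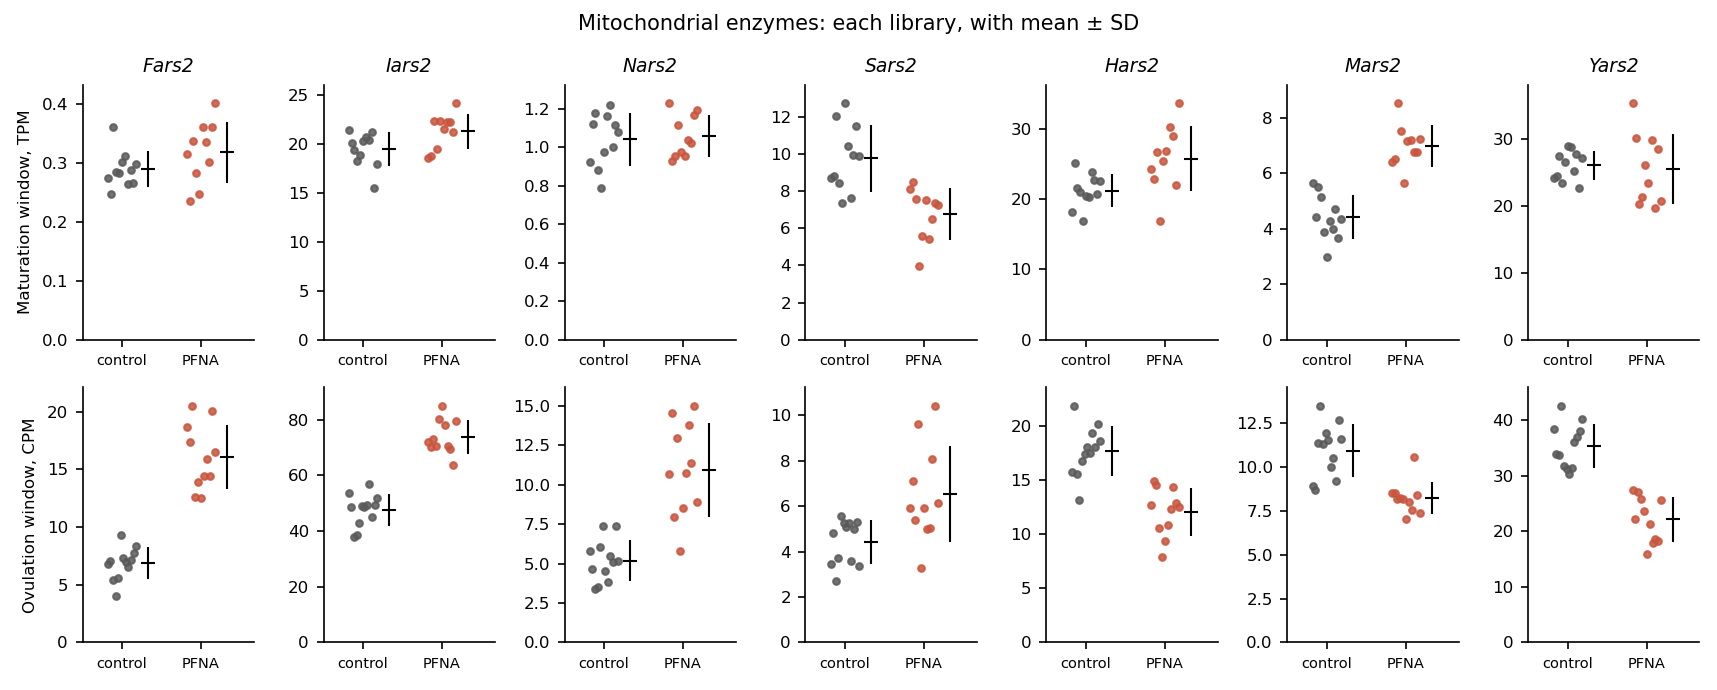
Level of 7 mitochondrial synthetase genes in each library of the maturation window (top, TPM) and ovulation window (bottom, CPM), controls in grey and PFNA in red, with mean ± SD beside them. Sars2 is lower with PFNA in the top row and higher in the bottom row, and Hars2 and Mars2 are higher in the top row and lower in the bottom row.

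In the ovulation window, the cytosolic and mitochondrial genes for the same amino acid more often had the same call than opposite calls. Over all genes 38.0% were higher and 35.2% lower there. Of the 17 pairs, 8 had the same call, 3 had opposite calls, 5 had a call in 1 gene only, and 1, for tryptophan, had none. Fars2 counts as the same call with Farsb and as an opposite call with Farsa. Both lists leaned to higher, with 12 of 20 cytosolic and 9 of 16 mitochondrial genes called so. That lean by itself makes same calls more frequent than opposite ones, and whether partners moved together was not tested. The opposite calls were Aars higher with Aars2 lower, Mars higher with Mars2 lower, and Farsa lower with Fars2 higher. The ratio of both genes within each library, log2(cytosolic / mitochondrial), is given as a description without a test. It rose by 1.23 ± 0.18 (SE) for alanine and by 1.19 ± 0.13 for methionine, and in both pairs all 11 PFNA libraries were above all 12 controls. For phenylalanine the ratio of Farsa to Fars2 dropped by 1.82 ± 0.12 (SE), with all 11 PFNA libraries below all controls, and that of Farsb to Fars2 dropped by 0.94 ± 0.13, with 10 of 11 below.

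The pairs with a call in 1 gene only were Eprs with Pars2, Lars with Lars2, Rars with Rars2, Vars with Vars2 and Yars with Yars2. Their ratios differed by 1.26 ± 0.24, 0.67 ± 0.20, -0.69 ± 0.17, -0.38 ± 0.13 and 0.65 ± 0.12. In these pairs a missing call does not show that the gene was unaffected, and Lars2 and Pars2 had the widest SE of the mitochondrial genes. Where both genes rose, the ratio could still move: for asparagine it was higher by 0.87 ± 0.21, for cysteine and isoleucine it differed by -0.56 ± 0.19 and -0.32 ± 0.14, and for glutamate, threonine and serine by 0.04 ± 0.066, 0.09 ± 0.18 and 0.18 ± 0.16. For histidine, where both genes fell, it differed by -0.10 ± 0.13.

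The maturation ratios were computed in the same way. The serine ratio of Sars to Sars2 was higher by 0.78 ± 0.17, with 8 of 10 PFNA libraries above every control, and the methionine ratio of Mars to Mars2 differed by -0.59 ± 0.12, with 7 of 10 below every control. The methionine ratio therefore went opposite ways in the windows, down in the maturation and up in the ovulation window. Ratios for alanine and tyrosine were higher by 0.30 ± 0.089 and 0.33 ± 0.093, each with 7 of 10 PFNA libraries above every control. The asparagine ratio was higher by 0.27 ± 0.079 and the histidine ratio differed by -0.32 ± 0.079. Wars to Wars2 and Farsa to Fars2 differed by -0.33 ± 0.13 and -0.33 ± 0.11, with Wars2 and Fars2 averaging under 1 TPM. All other pairs differed by less.

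**Figure D5:**
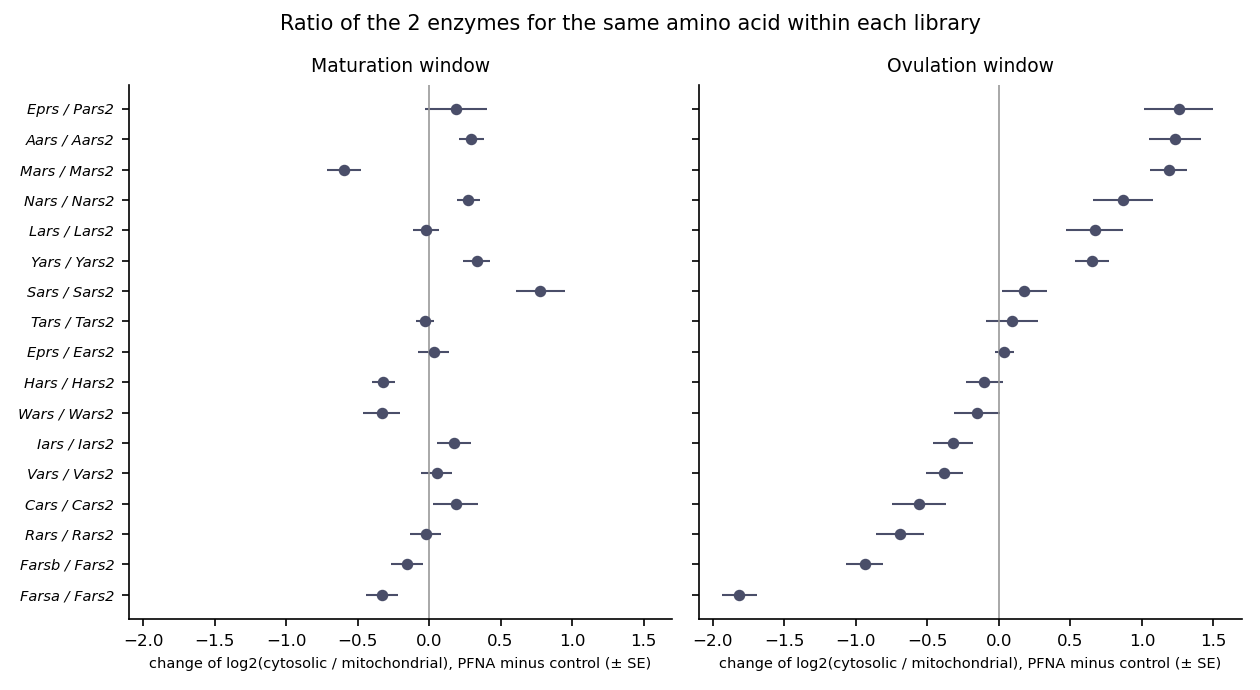
Change with PFNA of log2(cytosolic / mitochondrial) for each pair of genes for the same amino acid, as mean difference ± SE over libraries, in the maturation window (left) and the ovulation window (right). The ovulation values run from -1.82 for Farsa / Fars2 to 1.26 for Eprs / Pars2, and Mars / Mars2 lies on opposite sides of 0 in the windows.

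The PFNA effects of both windows were then compared gene by gene on log scales, as the ovulation minus the maturation effect. Of the 20 cytosolic genes 10 had a higher effect in the ovulation window, 4 a lower one and 6 did not pass, and of the 14 mitochondrial genes tested 8 were higher, 4 lower and 2 did not pass. Over all 11215 genes tested in both, 32.0% were higher and 35.6% lower. The largest positive difference was that of Nars, at 1.63 ± 0.12 (adjusted p = 4.5e-15), and the largest negative one that of Mars2, at -0.93 ± 0.12 (adjusted p = 3.8e-09). Sars2 and Hars2 differed by 0.92 ± 0.18 (adjusted p = 2.5e-05) and -0.78 ± 0.13 (adjusted p = 2.2e-06). Yars, higher in the maturation window alone, differed by -0.30 ± 0.14 (adjusted p = 0.045), a difference that did not pass with median-ratio size factors (-0.25, adjusted p = 0.079).

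Only 6 synthetase genes were called in both windows. Nars and Sars were higher in both and Farsa was lower in both. Hars2 and Mars2 were higher in the maturation and lower in the ovulation window, and Sars2 was lower in the maturation and higher in the ovulation window. Over all genes tested in both windows 24.8% were called in both, and of those 48.6% had the same direction. The windows have separate controls and were deposited on separate scales, so only these within-table effects were compared.

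The other genes of transfer RNA charging and use were counted beside the synthetases. Over all genes tested 38.0% were higher and 35.2% lower in the ovulation window, and 13.3% and 16.1% in the maturation window. Of 4 charging partners in mitochondria, Gatb, a subunit of the enzyme that converts glutamyl-tRNA to glutaminyl-tRNA, was higher in the ovulation window, by 1.23 ± 0.14 (adjusted p = 3e-08). Mtfmt, which formylates the initiator methionyl-tRNA charged by Mars2, fell there by 0.80 ± 0.15 (adjusted p = 5.2e-05), and Gatc and Qrsl1 were not called. None of the 4 was called by limma in the maturation window, where the smallest unadjusted p was 0.46. Of 6 editing enzymes and relatives, Dtd1, a D-aminoacyl-tRNA deacylase, Ptrh2 and Aarsd1 were higher in the ovulation window, by 1.87 ± 0.24, 0.74 ± 0.11 and 0.45 ± 0.14 (adjusted p = 1.9e-07, 1.1e-06 and 0.0051), and Lrrc47 fell by 0.78 ± 0.059 (adjusted p = 1e-11). Aarsd1 and Ptrh2 were lower among the 5 tested in the maturation window, by -0.25 ± 0.076 and -0.23 ± 0.074 (adjusted p = 0.017 and 0.025).

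The factors of translation that act on charged transfer RNA and the ribosome were counted for each compartment, against 38.0% higher and 35.2% lower over all genes in the ovulation window. Of 5 cytosolic elongation factors, Eef2, the translocase, and Eef1b2, an exchange factor of eEF1A, were higher by 0.72 ± 0.059 and 0.41 ± 0.054 (adjusted p = 5.8e-11 and 2.6e-07), and 0 were lower, with all 5 log2 fold changes above 0. Eef1a1, which carries the charged transfer RNA to the ribosome, was not called (0.11 ± 0.064, adjusted p = 0.13). Of 6 mitochondrial factors of initiation, elongation and recycling 4 were lower (Tufm, Mtif3, Gfm2 and Gfm1) and Mtif2 was higher (1.10 ± 0.12, adjusted p = 1.3e-08). Tufm, the mitochondrial counterpart of eEF1A, ran from 78.1 through 86.8 to 102 CPM in the controls and from 36.2 through 48.9 to 58.3 CPM with PFNA. Its groups did not overlap, and it fell by 0.87 ± 0.063 (adjusted p = 4.8e-12). None of these factors was called by limma in the maturation window, where Eef1g had an unadjusted p of 0.044 and the others were at 0.098 or more. The share of all genes called either way there was 29.4%.

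Genes of the ATF4 arm, among them its known targets and the kinases upstream of it, were counted last. In the ovulation window 12 of 18 were higher and 4 lower (Slc7a11, Slc3a2, Ddit4 and Eif2ak1), against 38.0% and 35.2% of all genes. Of the 17 tested in the maturation window 7 were higher and 3 lower (Shmt2, Slc3a2 and Eif2ak3), against 13.3% and 16.1%. The ovulation changes of smallest p were those of Pck2, at 2.47 ± 0.10 (adjusted p = 2.9e-16), Ddit3, at 2.61 ± 0.14 (adjusted p = 1.3e-14), and Slc7a5, a transporter of large neutral amino acids, at 1.62 ± 0.11 (adjusted p = 1.9e-12). Those of the maturation window were Trib3 at 1.92 ± 0.17 (adjusted p = 3.2e-07), Asns, the asparagine synthetase that makes the substrate of Nars, at 0.89 ± 0.12 (adjusted p = 2.4e-05), and Atf5 at 1.18 ± 0.17 (adjusted p = 3e-05). Asns rose in the ovulation window as well, by 1.60 ± 0.15 (adjusted p = 5.7e-10). Atf4 itself, whose protein is controlled mainly in translation, was not called in the maturation window (0.00 ± 0.086, adjusted p = 0.99) or in the ovulation window (0.01 ± 0.093, adjusted p = 0.92). The letters TGATGNAA were present in 5 of the 17 ATF4 arm genes with a promoter window and in 0 of the 3 scaffold genes.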

How the data were processed

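RNA sequencing libraries of mouse ovarian follicles were analysed from 2 gene tables, 1 for each window. Poly-A RNA was primed with random hexamers, per the labels' protocols. Partek, Bowtie2 and HISAT2 are named in the submitters' processing notes, and their versions, the annotation and the use of strand are not given in the sources used here. The maturation table that the authors deposited is named as raw counts and was read as TPM from its values: each library has the same total, so its depth is unknown, and its values relative to the ovulation counts were smaller for genes with longer GENCODE transcripts. The ovulation values that the authors deposited are estimated counts, rounded here to whole numbers, with totals of 11961105 to 16045751 per control library and 10600931 to 19511531 per PFNA library. Columns were matched to samples by title, with the maturation column spelled CN6 taken as CM6, and 0 columns of sample values were unused.

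TPM were tested as log2(TPM + 1) with limma 3.58.1 (trend and robust options) over the genes averaging 1 TPM or more. Counts were tested with edgeR 4.0.16 (filterByExpr, TMM, robust quasi-likelihood). P-values are two-sided, Benjamini-Hochberg adjusted over all genes tested in R 4.3.3, with a threshold of 0.05. The difference between windows combined both limma effects on the log2(value + 1) scale, with the ovulation values as CPM. Fits were tested on simulated data. DESeq2 1.42.0, limma-voom, other scalings, filters and pseudocounts, marker covariates, a replicate block and the leaving out of libraries were tried. Gene positions followed GENCODE M21 on GRCm38, and the promoter windows came from RefSeq on GRCm38.p6. No pair of ovulation libraries of a group was alike within counting noise. The maturation table has no counts for such a test.

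The synthetase genes and the accessory lists were chosen with earlier results of these data known. Values by group are given for the 5 cytosolic and 4 mitochondrial genes of smallest p in each window, for genes called in opposite directions, and for pairs whose calls differ. One accessory gene is not reported here. In the accessory lists up to 3 genes of smallest p are named. Other genes named there, the ratios of paired genes and the shared extreme libraries were chosen after their values were seen.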

Additional observations from a re-analysis of the deposited data

Results flagged for a closer look

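Qars in PFNA replicate 8 of the maturation window, at 156 TPM, stood further from the other PFNA libraries than Dixon's 95% critical value for 10 libraries allows. It was the 1 such library found over 36 genes, where chance alone gives about 1.8.

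The PFNA effect differed between the windows (log2 scale, ovulation minus maturation, adjusted p under 0.05) in 26 of the 34 synthetase genes tested. Of all 11215 genes tested in both windows, 67.7% had an effect that differed in this way. Among the cytosolic genes it was higher in the ovulation window for Nars (1.63), Lars (0.73), Mars (0.69), Dars (0.62), Tars (0.54), Eprs (0.51), Gars (0.49), Sars (0.47), Farsb (0.33) and Aars (0.30), and lower for Hars (-0.60), Farsa (-0.36), Qars (-0.35) and Yars (-0.30). Among the mitochondrial genes it was higher in the ovulation window for Sars2 (0.92), Nars2 (0.92), Cars2 (0.73), Rars2 (0.53), Iars2 (0.50), Ears2 (0.49), Tars2 (0.40) and Vars2 (0.35), and lower for Mars2 (-0.93), Hars2 (-0.78), Yars2 (-0.62) and Aars2 (-0.56). For Mars2, Hars2 and Sars2 the effect was called in both windows with opposite signs.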

How the results depend on the processing

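No called result changed sign under any alternative run. Of the maturation counts, the cytosolic higher count of 3 became 9 after rescaling without mitochondrial-like genes and 6 with an oocyte share covariate. Over all genes the higher count of 1824 became 3043 and 2161 in these runs, and the lower count of 2206 became 1700 and 1634. The cytosolic lower count of 1 became 2 with median-ratio size factors and 0 after that rescaling, with that covariate and with a replicate block. The mitochondrial higher count of 2 became 1 without a filter and 4 after rescaling, and the lower count of 1 became 2 with median-ratio size factors and without PFNA replicates 1 and 2. The mitochondrial median of 0.03 became 0.10 after rescaling and 0.11 with the covariate. In the ovulation window the cytosolic median of 0.34 became 0.48 with library totals only, and the mitochondrial median of 0.49 became 0.69 at a mean of at least 10 CPM (9 genes) and 0.29 with the covariate. Leaving out 1 library at a time gave 1 to 2 cytosolic lower, 1 to 2 mitochondrial higher and 1 to 2 mitochondrial lower genes in the maturation window, and 3 to 5 cytosolic lower genes in the ovulation window. The maturation counts moved with single libraries in this way. The mitochondrial higher count was 1, because Hars2 no longer passed, without PFNA replicate 3, 5, 6, 7, 8 or 10 or control replicate 1, 3, 5, 6, 7, 8 or 11. The mitochondrial lower count was 2 without PFNA replicate 1 or 8 or control replicate 11, and the cytosolic lower count was 2 without control replicate 11. The ratios of paired genes moved by less than the spread between libraries with 1 added to each value and without maturation PFNA replicates 1 and 2, ovulation PFNA replicate 5 and control replicates 2 and 7, alternatives chosen after seeing the data. The causes of these shifts were not tested.

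Controls and PFNA samples share replicate numbers, but same-numbered libraries did not deviate together, with correlations of -0.138 to 0.168 over 9 maturation pairs (1 over 0.1, 1 library best with its own number) and -0.193 to 0.073 over 11 ovulation pairs (0 and 0), so the numbers were not treated as pairs. With a replicate block Yars and Farsa lost their maturation calls (adjusted p = 0.075 and 0.13), and Pars2 gained an ovulation call, as it did with limma-voom. Depth limits the ovulation values of mitochondrial genes at a few CPM, Pars2 and Cars2 among them.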
